A study of Homo sapiens with 12 samples.

Results

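The Krüppel-like factors (KLFs) are transcription factors with 3 zinc fingers at the carboxyl end that bind GC boxes and CACCC elements in promoters. KLF4, KLF2, KLF5, KLF6 and KLF7 are mostly described as activators, KLF3 as a repressor that recruits the CtBP proteins, and KLF9, KLF10, KLF11 and KLF13 as factors that recruit the SIN3A corepressor. In intestinal epithelium KLF4 marks differentiated cells that have left the cell cycle, whereas KLF5 is high in dividing crypt cells. Several KLF genes have short-lived transcripts that rise quickly after serum, stress or growth factor signals. The 10 genes described here, KLF2, KLF3, KLF4, KLF5, KLF6, KLF7, KLF9, KLF10, KLF11 and KLF13, were taken by symbol from the 28278 gene symbols of the count table, which holds 18 KLF genes. KLF4 was chosen by its measured change after HCQ evolution, which had been seen to differ between cell lines, so its changes are given as a description, with no test. Tests are given for the other 9 genes except KLF7, which was too low to test, and KLF9, whose test has a limit stated below.

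Hydroxychloroquine (HCQ) is a weak base that accumulates in lysosomes and blocks autophagy. HCQ-evolved cells labelled OVCAR3 (ovarian cancer) and CCL218 (colorectal cancer, derived from HT29) had gone through 15 pulse-chases, each of 48 h with HCQ followed by regrowth in fresh medium, were kept without the drug for 7 days after the last one, and carried the label passage 15. Control cells of each line were passaged in parallel without HCQ and carried the label passage 19, so that treatment and passage label cannot be told apart. Each arm was 1 plate, whose wells were pooled by their place on the plate (pools labelled L, M and R). This gave 3 pools in each of 4 groups and 12 polyA RNA libraries. P-values therefore measure the spread between pools of 1 plate, which may be technical.

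Libraries held 31147822 to 59965861 counts. Levels below are TMM-scaled CPM (reads of a gene relative to the library's effective total), given as mean ± SD of 3 pools, and changes are log2 fold changes of HCQ-evolved over control unless stated, with their standard error (SE). In bulk RNA, fewer cells with a transcript and less transcript per cell cannot be told apart. The labelled tissues were checked with 8 ovarian and 8 colorectal markers. PAX8, MUC16, MSLN and WFDC2 reached 1 CPM in all pools of every group, whereas WT1, SOX17, EMX2 and ESR1 did not. The 8 ovarian markers summed to 55.8 to 93.5 CPM in control OVCAR3 and to 66.2 to 131 CPM in control CCL218. After evolution their sums were 78.0 to 101 CPM in OVCAR3 and 108 to 150 CPM in CCL218. The ovarian markers were thus no higher under the OVCAR3 label. Libraries labelled OVCAR3 also expressed intestinal genes: 6 of the 8 colorectal markers (CDX2, CDH17, VIL1, LGALS4, GPA33 and CEACAM5) reached 1 CPM in all control OVCAR3 pools, where the 8 markers summed to 908 to 1072 CPM, against 1108 to 1564 CPM in control CCL218. The sums were 226 to 653 CPM in HCQ-evolved OVCAR3 and 1168 to 1228 CPM in HCQ-evolved CCL218. The names OVCAR3 and CCL218 are used here as labels of libraries. Libraries also differed in how strongly long transcripts were represented: Spearman's rho of a library's deviation with transcript length ranged from -0.506 in control CCL218 L to 0.557 in OVCAR3 R after evolution, and each group held positive and negative values.

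The sequence just upstream of the transcription start is shown for KLF4 and KLF2, the pair with the largest differences between lines among the 9 genes of the group that could be fitted. Each window holds the 250 bases before the start in RefSeq (GRCh38.p14), with GGGCGG, the GC box core, or its reverse complement CCGCCC in capitals. The KLF4 window, chr9:107489770-107490019 on the minus strand, lies inside the span that GENCODE 44 gives the gene and overlaps none of its exons, and the KLF2 window, chr19:16324576-16324825 on the plus strand, ends where the gene begins.
KLF4: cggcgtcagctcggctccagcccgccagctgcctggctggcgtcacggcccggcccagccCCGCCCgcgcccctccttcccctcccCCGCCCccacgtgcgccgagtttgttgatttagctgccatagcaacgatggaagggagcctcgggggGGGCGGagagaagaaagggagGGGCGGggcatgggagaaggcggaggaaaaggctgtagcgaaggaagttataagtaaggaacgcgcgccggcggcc
KLF2: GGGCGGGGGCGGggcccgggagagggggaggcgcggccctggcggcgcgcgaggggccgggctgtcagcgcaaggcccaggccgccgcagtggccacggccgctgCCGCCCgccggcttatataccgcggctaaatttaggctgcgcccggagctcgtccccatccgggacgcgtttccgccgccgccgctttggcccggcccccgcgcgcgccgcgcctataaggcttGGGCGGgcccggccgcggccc
Each window holds 4 matches to GGGCGG on either strand, a motif found in 42.64% of 35116 RefSeq promoters of the same length. Neither holds CACCC, found in 54.71%, nor TATAAA, found in 10.72%, nor the CArG box, the motif of serum response factor, found in 1.16%. TGACG, the core of the CREB and ATF site, occurs 2 times before KLF4 and not before KLF2, and is in 21.22% of promoters. These matches describe letters in the windows, and binding was not measured. GC content was 69.2% in the KLF4 window and 80.0% in the KLF2 window.

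Per kilobase of the canonical transcript, KLF5 was the most abundant gene of the group. In control OVCAR3 it stood at 185 ± 38.4 CPM per kb, followed by KLF6 (53.9 ± 7.98) and KLF10 (53.2 ± 14.7), which did not differ beyond their spread. KLF3 followed at 19.6 ± 5.35 CPM per kb. KLF4 (7.64 ± 2.04) and KLF2 (6.92 ± 1.53) were alike within their spread, as were KLF11 (3.56 ± 1.32) and KLF13 (2.01 ± 1.32). KLF9 (0.165 ± 0.0528 CPM per kb) and KLF7 stood at the bottom. In HCQ-evolved CCL218 the order was KLF5 (255 ± 17.1), KLF10 (59.5 ± 3.21), KLF6 (32.6 ± 2.34), KLF3 (25.3 ± 2.05) and KLF4 (18.03 ± 1.36), so that KLF4 there stood above KLF2 (7.05 ± 1.87) by more than their spread.

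**Figure D1:**
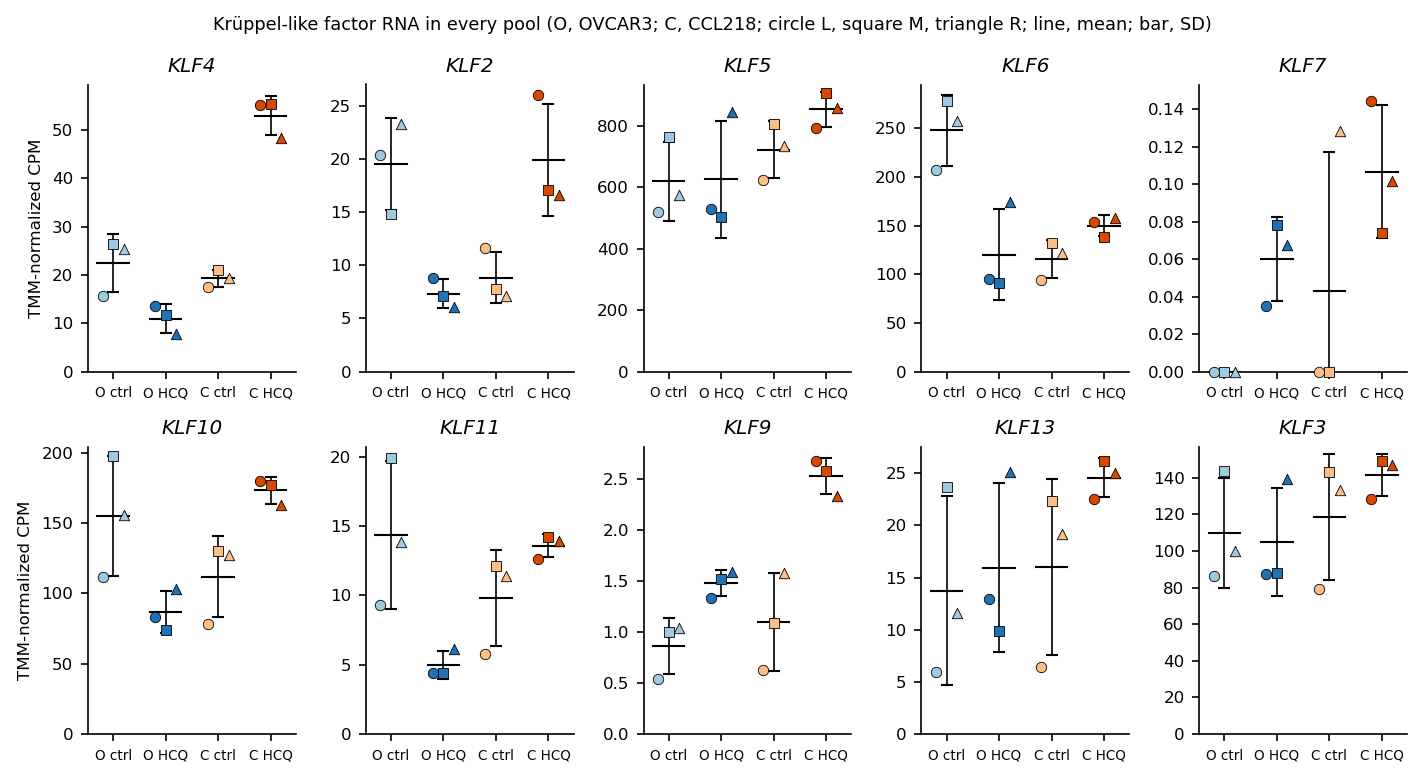
Level of each of the 10 KLF genes in the 12 pools, in TMM-normalized CPM on a linear axis that starts at 0 and differs between panels. Symbols are pools (circle L, square M, triangle R), horizontal lines are means and bars are SD of 3 pools. KLF4 and KLF2 are lower in HCQ-evolved than in control OVCAR3 pools and higher in HCQ-evolved than in control CCL218 pools, whereas KLF5 and KLF3 overlap in both lines.

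KLF4 encodes an epithelial differentiation factor that also helps to reprogram somatic cells to pluripotency. The gene lies on chromosome 9 (107484852 to 107490482, minus strand, hg38). In OVCAR3, KLF4 was at 15.5 (L), 26.3 (M) and 25.4 (R) CPM in control pools and at 13.5, 11.7 and 7.80 CPM in HCQ-evolved pools. In CCL218, it was at 17.6, 21.0 and 19.4 CPM in control pools and at 55.0, 55.4 and 48.3 CPM in HCQ-evolved pools. The groups did not overlap in either line, although control OVCAR3 L lay close to the HCQ-evolved pools, and the HCQ-evolved pools lay below control in OVCAR3 and above it in CCL218. The log2 fold change was -1.05 (SE 0.29) in OVCAR3 and 1.43 (SE 0.13) in CCL218, a difference of 2.50 (SE 0.32). Control pools of both lines overlapped, at 22.4 ± 5.98 CPM in OVCAR3 and 19.3 ± 1.70 CPM in CCL218. These values chose the gene and are given without a test. With 1 pool left out, the change ranged from -1.26 (without control L) to -0.87 (without HCQ-evolved R) in OVCAR3 and from 1.37 to 1.495 in CCL218.

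KLF2 encodes a factor that maintains quiescence in endothelial cells and T lymphocytes, and is located on chromosome 19 (16324826 to 16328685, plus strand). In OVCAR3, it was at 20.4 (L), 14.8 (M) and 23.3 (R) CPM in control pools and at 8.81, 7.11 and 6.10 CPM in HCQ-evolved pools. In CCL218, it was at 11.6, 7.80 and 7.13 CPM in control pools and at 26.0, 17.1 and 16.6 CPM in HCQ-evolved pools. The groups did not overlap, with evolved pools lower than control in OVCAR3 and higher in CCL218. KLF2 fell in OVCAR3 with a log2 fold change of -1.43 (SE 0.24, adjusted p = 0.0364, edgeR). In CCL218 the log2 fold change was 1.14 (SE 0.27) and did not pass the test (adjusted p = 0.0511, edgeR). In an alternative fit with plate position as a block, the change in CCL218 was 1.15 (adjusted p = 0.00185). The same block ended the OVCAR3 call (-1.42, adjusted p = 0.0925), where pools of the same position did not deviate together. The OVCAR3 call held without HCQ-evolved R (adjusted p = 0.0237) and was lost without any one of the other 5 pools, with log2 fold changes of -1.60 to -1.30 and adjusted p of 0.0691 (without control M), 0.0817 (without HCQ-evolved L), 0.131 (without HCQ-evolved M), 0.180 (without control L) and 0.182 (without control R).

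The change of KLF2 differed between lines, by 2.60 on the log2 scale (CCL218 minus OVCAR3, SE 0.38, 95% interval 1.76 to 3.43, adjusted p = 0.00890, interaction in edgeR). The interaction stayed past the threshold without any one of the 12 pools (2.35 to 2.86, adjusted p of at most 0.0358) and under the 5 other processing choices that were run (2.58 to 2.60, adjusted p of at most 0.0232). KLF2 was the only gene of the 8 tested beside KLF4 to pass this test, in which 0.872% of 12613 genes passed, 0.69% with a higher change in CCL218 and 0.182% with a lower one. The levels of KLF2 thus crossed: control OVCAR3 (19.5 ± 4.32 CPM) and HCQ-evolved CCL218 (19.9 ± 5.28 CPM) were alike within their spread, as were HCQ-evolved OVCAR3 (7.34 ± 1.37 CPM) and control CCL218 (8.85 ± 2.42 CPM).

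**Figure D2:**
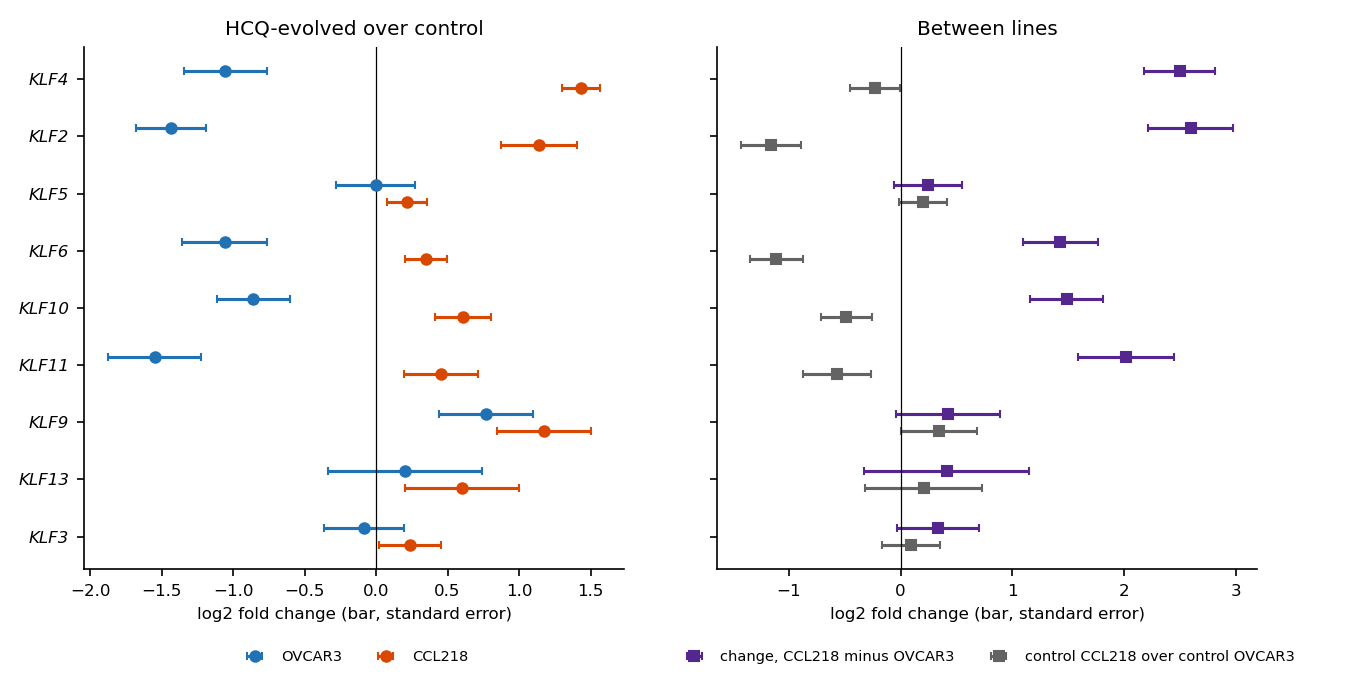
Log2 fold change and SE for the 9 KLF genes that could be fitted, HCQ-evolved over control in each line (left) and between lines (right, the change in CCL218 minus the change in OVCAR3, and control CCL218 over control OVCAR3). KLF4, KLF2, KLF6, KLF10 and KLF11 lie below 0 in OVCAR3 and above 0 in CCL218, and the SE bars of KLF9, KLF13, KLF3 and KLF5 overlap between lines.

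KLF6 encodes a widely expressed factor that is induced by injury and was described as able to restrain growth through CDKN1A. It is on chromosome 10 (3775996 to 3785281, minus strand). In OVCAR3 it was at 207, 278 and 258 CPM (L, M, R) in control pools and at 95.3, 90.9 and 174 CPM in HCQ-evolved pools. In CCL218 it was at 93.9, 132 and 122 CPM in control pools and at 154, 138 and 158 CPM in HCQ-evolved pools. Pools did not overlap within either line, and the HCQ-evolved pool R stood apart from L and M in OVCAR3. The log2 fold changes were -1.06 (SE 0.29, adjusted p = 0.122) in OVCAR3 and 0.35 (SE 0.15, adjusted p = 0.202) in CCL218, neither past the threshold, and their difference was 1.43 (SE 0.34, adjusted p = 0.0872). Without HCQ-evolved R the change in OVCAR3 was -1.44 (adjusted p = 0.00675) and the difference 1.80 (adjusted p = 0.00319). HCQ-evolved R was the library with the highest rho with transcript length. With an offset for length and GC content the change in OVCAR3 was -1.15 (SE 0.18, adjusted p = 0.0136).

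KLF10 and KLF11 were first described as early genes of TGF-beta signaling, and both restrain growth of epithelial cells. KLF10 (chromosome 8, 102648784 to 102655725, minus strand) was at 112, 198 and 156 CPM in control OVCAR3 pools and at 83.5, 73.6 and 103 CPM in HCQ-evolved pools. CCL218 pools were at 78.4, 130 and 127 CPM in controls and at 180, 177 and 163 CPM after evolution. As for KLF4, pools of the groups were apart in both lines with opposite order. The log2 fold change was -0.86 (SE 0.26, adjusted p = 0.143) in OVCAR3 and 0.61 (SE 0.20, adjusted p = 0.114) in CCL218, which passed with plate position as a block (0.64, adjusted p = 0.0441). The difference between lines was 1.49 (SE 0.32, adjusted p = 0.0689).

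KLF11, located on the plus strand of chromosome 2 between 10042849 and 10054836, was at 9.27, 19.9 and 13.8 CPM in control OVCAR3 pools and at 4.37, 4.38 and 6.15 CPM in HCQ-evolved pools. Control CCL218 pools were at 5.80, 12.1 and 11.4 CPM and HCQ-evolved ones at 12.6, 14.2 and 13.9 CPM. All HCQ-evolved pools of OVCAR3 lay below control, and all those of CCL218 lay above it by a narrow margin. The log2 fold change was -1.55 (SE 0.32, adjusted p = 0.0613) in OVCAR3 and 0.45 (SE 0.26, adjusted p = 0.318) in CCL218, and the difference was 2.02 (SE 0.43, adjusted p = 0.0636). Without HCQ-evolved OVCAR3 R the change in OVCAR3 passed (adjusted p = 0.0221), and the differences of KLF10 and KLF11 passed without OVCAR3 control L (1.66 and 2.24, adjusted p = 0.0492 and 0.0464) or HCQ-evolved R (1.63 and 2.20, adjusted p = 0.0381 for both).

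KLF9 encodes a factor induced by glucocorticoid and thyroid hormone and was low in all libraries. It was at 0.543, 0.998 and 1.04 CPM in control OVCAR3 pools (22 to 56 counts) and at 1.34, 1.52 and 1.59 CPM in HCQ-evolved pools. In CCL218 it was at 0.626, 1.09 and 1.58 CPM in control pools and at 2.68, 2.58 and 2.34 CPM in HCQ-evolved pools (130 to 140 counts). HCQ-evolved pools lay above control pools in both lines. KLF9 lay near the minimum of 1 CPM and in each line reached it in 3 libraries only through the HCQ-evolved pools, so that its change is given here without its test. The log2 fold change was 0.77 (SE 0.33) in OVCAR3 and 1.17 (SE 0.33) in CCL218, or 1.23 with plate position as a block, and the difference between lines was 0.43 (95% interval -0.59 to 1.45). Without control CCL218 L, the library with the lowest rho with transcript length, the change of KLF9 in CCL218 was 0.90, and those of KLF2 (1.39, adjusted p = 9.77e-04) and KLF10 (0.41, adjusted p = 0.00803) passed.

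KLF5, the factor of dividing crypt cells, was at 619 ± 129 CPM in control and 625 ± 191 CPM in HCQ-evolved OVCAR3, and at 722 ± 92.3 and 853 ± 57.2 CPM in CCL218. Its pools overlapped in both lines, with log2 fold changes of -0.0034 (SE 0.28, adjusted p = 0.998) and 0.22 (SE 0.14, adjusted p = 0.356). KLF3 was at 110 ± 29.9 CPM in control and 105 ± 29.6 CPM in HCQ-evolved OVCAR3, and at 119 ± 34.5 and 142 ± 11.5 CPM in CCL218, with changes of -0.08 (SE 0.28, adjusted p = 0.918) and 0.23 (SE 0.22, adjusted p = 0.523). KLF13, known for its role in lymphocytes, was at 13.7 ± 9.07 and 16.0 ± 8.09 CPM in OVCAR3 and at 16.0 ± 8.45 and 24.6 ± 1.89 CPM in CCL218. Its log2 fold changes were 0.20 (SE 0.54, adjusted p = 0.894) and 0.60 (SE 0.40, adjusted p = 0.375). Within OVCAR3 these 3 genes were highest in control M and HCQ-evolved R, the OVCAR3 libraries with the highest rho with transcript length (0.522 and 0.557). KLF6, KLF10 and KLF11 were highest in M among control pools and in R among HCQ-evolved pools. In HCQ-evolved R they still lay below every control pool. With the offset for length and GC content the changes of KLF5, KLF3 and KLF13 in OVCAR3 were -0.054, -0.21 and 0.23, none past the threshold. An antisense gene, KLF3-AS1, overlaps KLF3, and whether counting used strand is not given in the sources used here. For KLF2, KLF3, KLF4 and KLF7, pseudogenes are named in RefSeq, and reads shared with them would make these levels uncertain.

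KLF7 was at or near the floor of 3 counts per pool throughout. It had 0 counts in all control OVCAR3 pools and 2, 4 and 4 counts in HCQ-evolved pools, and 0, 0 and 6 counts in control against 7, 4 and 6 counts in HCQ-evolved CCL218. A count of 0 allows up to 3 counts, for counting error only, so a difference was not detectable at this depth, and KLF7 was not tested. Of 29816 entries of 1 to 4 counts in the table, 78.9% were even numbers, so that low counts came mostly in steps of 2.

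The 8 tested genes beside KLF4 include KLF9, whose values are no support because of the limit given above. Of the 8, 1 fell in OVCAR3 (KLF2) and none rose, against 1.86% of 12204 genes called (0.647% higher and 1.21% lower). Their median log2 fold change was -0.47, against 0.016 over all genes. By unadjusted p, 1983 genes passed the same threshold in OVCAR3, among them KLF2, KLF6, KLF10, KLF11 and KLF9, the last subject to the limit given above. Pools did not overlap for KLF2, KLF6, KLF10 and KLF11 (lower) and, with the same limit, KLF9 (higher), where 25.9% of all genes had pools apart, 11.4% lower and 14.5% higher. In CCL218, 0 of 8 genes passed by edgeR, against 6.46% of 12241 genes (3.82% higher and 2.64% lower), in the fit without pairing. With plate position as a block edgeR called 3 (KLF2, KLF10 and, with the limit given above, KLF9) and 1744 genes in all. The same 3 passed by DESeq2 and had an unadjusted p under the threshold without pairing, as had 3084 genes in all. All 8 log2 fold changes in CCL218 were above 0 (0.22 to 1.17, median 0.53, against -0.017 over all genes). The highest, 1.17, was that of KLF9, which the filter favoured, and KLF2 followed at 1.14. Without control L the 8 changes ranged from 0.013 (KLF3) to 1.39 (KLF2) with a median of 0.22. Without that pool KLF5 was at 0.13, KLF6 at 0.22, KLF11 at 0.19 and KLF13 at 0.22. Pools were apart and higher for KLF2, KLF6, KLF10, KLF11, KLF13 and, with the same limit, KLF9, where 36.1% of genes had pools apart, 19.8% higher and 16.3% lower. In CCL218, 4 of 6 tested colorectal markers rose as well (CDX2 by 1.54, CEACAM5 by 2.10, GPA33 by 2.86 and CDH17 by 3.77 on the log2 scale), whereas VIL1 and LGALS4 changed by -0.023 and -0.42 without passing, and their part in the KLF values was not tested.

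**Figure D3:**
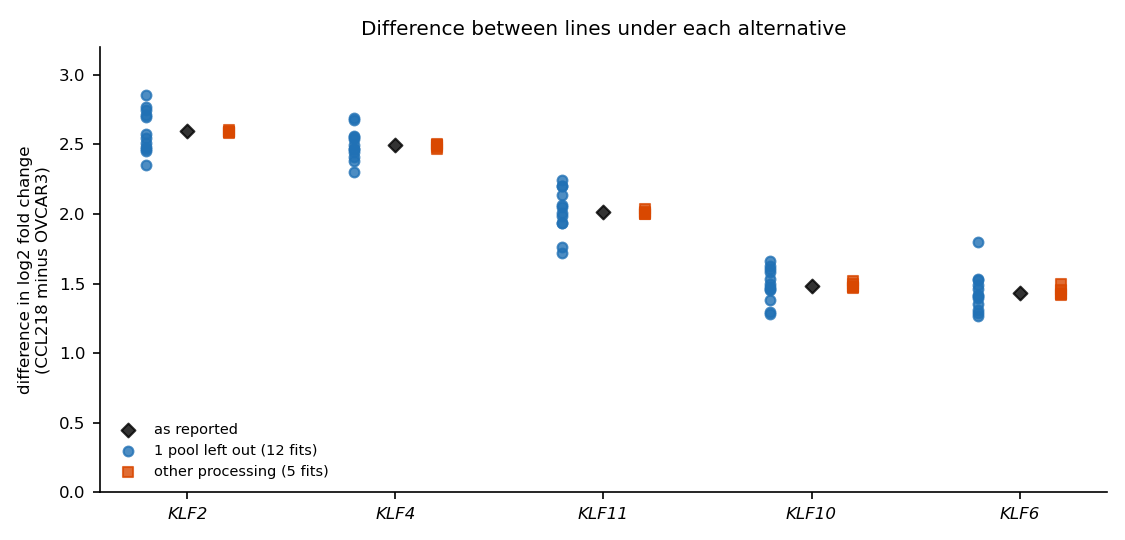
Difference in log2 fold change between lines (CCL218 minus OVCAR3) for KLF2, KLF4, KLF11, KLF10 and KLF6, as reported (diamond), with each of the 12 pools left out in turn (circles) and under 5 other processing choices (squares). All values lie above 0, from 1.27 for KLF6 without HCQ-evolved OVCAR3 M to 2.86 for KLF2 without control CCL218 L.

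Between the control plates, which were passaged in parallel without HCQ, CCL218 pools had less KLF2 and KLF6 than control OVCAR3 pools. KLF2 was lower by 1.16 on the log2 scale in CCL218 (log2 fold change -1.16, SE 0.27, adjusted p = 0.0380) and KLF6 by 1.11 (-1.11, SE 0.24, adjusted p = 0.0260). These were 2 of the 8 tested genes, against 3.42% of 12613 genes (1.35% higher and 2.07% lower in CCL218). Their pools did not overlap, as for 17.8% of genes (8.94% higher and 8.83% lower), and the other 6 tested genes overlapped between lines, with changes of -0.57 (KLF11) to 0.34 (KLF9). Of 12 fits with 1 pool left out, KLF2 passed in 5 and KLF6 in 7. Both calls were lost without control OVCAR3 R (KLF2 adjusted p = 0.160, KLF6 0.102), control CCL218 M (0.177 and 0.0709) or control CCL218 R (0.184 and 0.101). KLF2 was also lost without control OVCAR3 L (0.130), HCQ-evolved OVCAR3 M (0.0559), HCQ-evolved CCL218 M (0.0593) or HCQ-evolved CCL218 R (0.0550), and KLF6 without control OVCAR3 M (0.0722) or control CCL218 L (0.0529). In a fit of control libraries only KLF2 was lost (adjusted p = 0.0978). Line and library preparation cannot be told apart in this comparison. It shares its control pools with the comparisons above, so that a low KLF2 level in control CCL218 enters both the difference between controls and the change after evolution.

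Among the 8 other KLF genes in the table, 4 were expressed enough to test. KLF15, a factor of glucocorticoid response and energy metabolism in muscle and liver, was the single one of these 4 to pass, and it fell in both lines. It fell from 27.1 ± 5.90 to 4.85 ± 1.42 CPM in OVCAR3 (log2 fold change -2.51, SE 0.29, adjusted p = 0.0128) and from 19.6 ± 6.99 to 4.74 ± 1.11 CPM in CCL218 (-2.08, SE 0.30, adjusted p = 0.0115). The difference between lines was 0.45 (SE 0.43, adjusted p = 0.985). The call was lost in OVCAR3 without control L or control R (adjusted p = 0.126 and 0.100) and in CCL218 without HCQ-evolved M or HCQ-evolved R (0.0910 and 0.0805). KLF12, a CtBP-binding repressor, had the smallest p of this list in both comparisons between lines and passed neither (adjusted p = 0.831 for the difference in change and 0.198 between controls).

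The SP factors share the zinc finger domain and the GC box with the KLFs. Of 6 tested, SP5, a target of WNT signaling, fell in OVCAR3 (-1.30, SE 0.19, adjusted p = 0.0218), from 41.0 ± 4.34 to 16.9 ± 1.82 CPM. SP6, a factor of skin and tooth epithelium, rose in CCL218 (0.76, SE 0.15, adjusted p = 0.0314), from 55.2 ± 9.16 to 95.1 ± 6.25 CPM, and was lower in control CCL218 than in control OVCAR3 (-0.89, adjusted p = 0.0112). In control libraries only the latter call was lost (adjusted p = 0.0652, edgeR). Both genes moved the same way in the other line. SP5 went from 33.4 ± 10.6 to 20.1 ± 2.76 CPM in CCL218, called by DESeq2 and not by edgeR. SP6 went from 101 ± 12.2 to 138 ± 21.5 CPM in OVCAR3, called by neither. A difference between lines in the change was not called for SP5 or SP6 (adjusted p = 0.706 and 0.835).

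Few partners and regulators of the KLF proteins passed the test. Of 11 corepressors and coactivators, including CTBP1, SIN3A, HDAC1 and EP300, 0 passed in any comparison by edgeR or DESeq2, 1 had an unadjusted p under the threshold, in OVCAR3, and the smallest p were those of KAT2B (adjusted p = 0.306 in OVCAR3) and SIN3B (0.232 in CCL218). Of 6 tested genes of the ERK5 and MEF2 pathway, which induces KLF2 and KLF4 in endothelium, 0 passed by edgeR, by DESeq2 or by unadjusted p, with the smallest p for MAP3K2 (0.535 in OVCAR3), MAP2K5 (0.220 in CCL218) and MAPK7 (0.961 for the difference). Of 9 ubiquitin ligases and deubiquitinases that act on KLF proteins, FBXO32, a ligase of muscle atrophy, fell in OVCAR3 (-0.86, SE 0.16, adjusted p = 0.0484) and was higher in control CCL218 (0.50, adjusted p = 0.0440). Without a filter on low counts neither call held (adjusted p = 0.0684 and 0.194), and between controls it was 0.21 (adjusted p = 0.649) with the length and GC content offset and 0.50 (adjusted p = 0.200) in control libraries only. Of 11 genes of the TGF-beta pathway, TGFBI rose in CCL218 (0.84, SE 0.18, adjusted p = 0.0379) and SMAD7, a feedback inhibitor, was lower in control CCL218 than in control OVCAR3 (-0.83, adjusted p = 0.00464). Of 4 tested genes of the glucocorticoid response, PER1 rose in CCL218 (0.61, SE 0.13, adjusted p = 0.0345), and TSC22D3 and SGK1 were lower in control CCL218 (-1.37 and -1.42, adjusted p = 0.00125 and 0.00128).

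Genes described as KLF4 targets in epithelium were led by CDKN1A, which encodes the cyclin-dependent kinase inhibitor p21. It was at 64.1 ± 6.13 CPM in control and 25.5 ± 3.36 CPM in HCQ-evolved OVCAR3, and at 19.6 ± 1.09 and 45.3 ± 6.27 CPM in CCL218. CDKN1A fell in OVCAR3 (-1.35, SE 0.19, adjusted p = 0.0218) and rose in CCL218 (1.19, SE 0.14, adjusted p = 0.00603), and the change differed between lines (2.56, SE 0.21, adjusted p = 5.39e-04). CCND1, which encodes cyclin D1 and is described as repressed by KLF4 and induced by KLF5, fell in OVCAR3 (-1.08, SE 0.19, adjusted p = 0.0380) and differed between lines (1.28, adjusted p = 0.0178). MUC2, the goblet cell mucin, fell in OVCAR3 (-2.18, adjusted p = 0.0275), and LAMA3, a laminin chain, rose in CCL218 (1.13, adjusted p = 0.0103). In all, 3 of 10 tested genes of this list fell in OVCAR3, against 1.21% of all genes, and 2 of 9 rose in CCL218, against 3.82%. The medians were 0.25 and 0.49, and 6 genes lay above 0 in each line. Changes ranged from -2.18 to 0.66 in OVCAR3 and from -1.56 to 1.19 in CCL218. By DESeq2, 6 passed in CCL218 in either direction (CDH1, CDKN1A, CDKN1B, KRT19, LAMA3 and MUC2), where 2172 genes passed in all. Between controls, CDKN1A, KRT13 and IVL were lower in CCL218 (-1.73, -1.53 and -2.27) and MUC2 higher (2.57). IVL met the filter only with the HCQ-evolved libraries in the fit, and had no test in control libraries only. Of 9 tested genes described as KLF5 targets, CCNB1, a mitotic cyclin, rose in OVCAR3 (0.92, adjusted p = 0.0336), CCND1 fell there, and LGR5, a stem cell receptor, fell in CCL218 (-1.18, adjusted p = 0.0210), and between controls 0 passed by edgeR, with 1 (MCL1) by unadjusted p and by DESeq2 (edgeR adjusted p = 0.126).

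Immediate early genes have transcripts that rise within minutes of a stimulus, as do those of several KLFs. Of 13 tested in OVCAR3, 7 passed as lower, EGR3 among them, against 1.21% of 12204 genes. FOSB, FOSL1, JUN, EGR2, ATF3 and NR4A1 fell, and EGR3 met the filter only through its control pools, where it was high, so that its call is no support. In all, 0 had a log2 fold change above 0, and the median was -1.78, which is the same with EGR3 at its bound. ATF3 was at 188 ± 22.4 CPM in control and 6.13 ± 1.53 CPM in HCQ-evolved OVCAR3 (-4.96, SE 0.27, adjusted p = 8.92e-04). EGR3 had 110 to 169 counts in control OVCAR3 pools and 0 to 2 in HCQ-evolved pools, at least 62.6-fold lower with the floor of 3 counts per pool. In CCL218, 0 of 13 passed by edgeR, 5 passed by DESeq2 and 6 by unadjusted p, and 9 lay above 0, with a median of 0.23 and the smallest p for EGR2 (0.53, adjusted p = 0.0519). The change differed between lines for FOSB, JUN, EGR2, EGR3, ATF3 and NR4A1 and, at the very edge of the threshold, for FOS. In all of them the change in CCL218 lay above that in OVCAR3. For EGR3 this difference rests on HCQ-evolved OVCAR3 pools at the floor, so its call is no support here either. FOSB, EGR3, ATF3 and NR4A1 were lower in control CCL218 than in control OVCAR3 (-1.71 to -2.34). That comparison shares control pools with the changes.

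The calls in these lists leaned on single pools. Of the lists other than the tissue markers, 14 genes passed in OVCAR3 (EGR3 included), of which 1 (ATF3) still passed without control L, 2 without control R (ATF3 and NR4A1), 5 without control M or without HCQ-evolved M, 6 without HCQ-evolved L and 14 without HCQ-evolved R. EGR3 fell under the minimum level, and had no test, when a control pool was left out. With plate position as a block, CCNB1, CCND1, CDKN1A, FBXO32, FOSL1, JUN and SP5 were lost in OVCAR3. In CCL218, 7 genes of the same lists passed, of which 1 (CDKN1A) did so without any one of the 6 pools (log2 fold change 1.07 to 1.25), as did the colorectal markers CDX2, CDH17, GPA33 and CEACAM5, and 7 did without control L. With all libraries in one fit 4 of the 7 still passed, and LAMA3, PER1 and TGFBI were lost. CDX2 passed in 5 of 6 other processing settings (adjusted p up to 0.161). For the difference between lines, 9 passed (EGR3 included). CDKN1A, ATF3, EGR2, FOSB, NR4A1 and, with the limit given above, EGR3 did so without any one of the 12 pools. Between controls, 13 passed and 10 to 13 did so with 1 pool left out. FBXO32 did so in 1 of the 12 fits, without HCQ-evolved OVCAR3 R (adjusted p 0.0555 to 0.167 in the others), EGR3 was lost without control OVCAR3 M or R or control CCL218 M or R, and IVL without control CCL218 M or R.

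**Figure D4:**
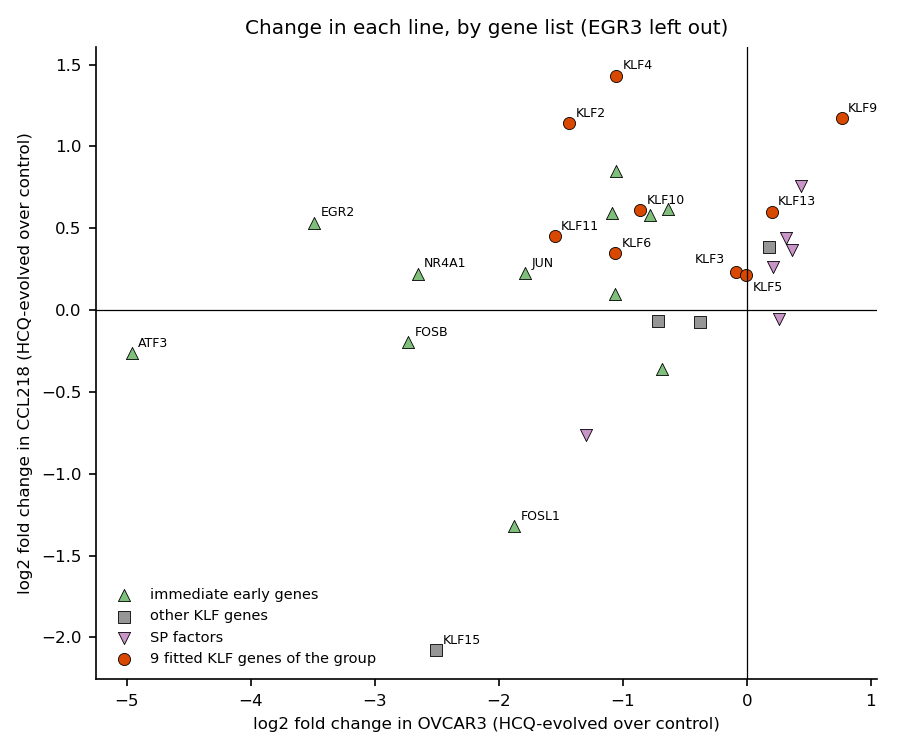
Log2 fold change of HCQ-evolved over control in OVCAR3 (horizontal) and CCL218 (vertical) for the 9 fitted KLF genes of the group (circles), other KLF genes (squares), SP factors (inverted triangles) and immediate early genes (triangles). EGR3, at the floor in HCQ-evolved OVCAR3, is left out. KLF4, KLF2, KLF10, KLF6 and KLF11 lie left of and above 0, KLF15 lies at -2.51 and -2.08, and ATF3 lies furthest to the left at -4.96.

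Over the 12 libraries, the pattern of KLF4 was most like that of FMO5 (Pearson r = 0.959 of log2 CPM), SC5D (0.943), ETS2 (0.938), AKAP7 (0.937) and ATP6AP1 (0.935). AKAP7, an anchor of protein kinase A, was at 11.04 CPM in control and 3.79 CPM in HCQ-evolved OVCAR3, and at 12.3 and 41.0 CPM in CCL218. FMO5, a flavin monooxygenase, was at 3.43 and 2.10 CPM in OVCAR3 and at 4.21 and 9.81 CPM in CCL218. ETS2, a transcription factor, was at 801 and 646 CPM in OVCAR3 and 771 and 948 CPM in CCL218, a smaller change than that of KLF4. Within the KLF group, r with KLF4 was 0.787 for KLF10, 0.729 for KLF11, 0.719 for KLF2, 0.519 for KLF5 and for KLF9, 0.476 for KLF3, 0.429 for KLF13 and 0.228 for KLF6. The 12 points share 4 groups and their libraries' depth and length trends, so that these correlations describe likeness of pattern over these libraries.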

How the data were processed

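PolyA RNA of 12 pools (OVCAR3 and CCL218, control and HCQ-evolved, 3 pools each) was analysed. The authors aligned reads to hg38 with STAR, removed duplicates with RmDup and deposited read counts per gene symbol from featureCounts. Versions, annotation and strand setting are not given in the sources used here. Every sample column was mapped by its title, and 0 columns were left without a sample. Groups came from the sample titles.

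The KLF members, the gene lists and the rule for names were chosen with earlier results of these data known. All 10 members were named, and from each list the genes past the threshold in a comparison, or else the one with the smallest p. For KLF4, the 5 genes with the highest correlation over libraries were named.

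Counts were scaled by TMM. Genes that reached 1 CPM in 3 or more libraries of a fit were tested by quasi-likelihood in edgeR 4.0.16 (robust option, limma 3.58.1, R 4.3.3), with Benjamini-Hochberg adjustment over all genes and a threshold of 0.05. Each line was fitted alone (6 libraries), and the difference between lines and the comparison of controls came from 1 fit of 12 libraries. log2 CPM used a prior count of 2. Alternatives were other size factors (RLE), no filter, the Wald test of DESeq2 1.42.0, plate position as a block, an offset for length and GC content, other sets of libraries in the fit, and each pool left out.

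Same-position pools of control and HCQ-evolved plates deviated together in CCL218 (correlation 0.542 for L, 0.270 for M and 0.227 for R), but not in OVCAR3 (0.422, -0.691 and -0.500). The reported fits had no pairing in either line, and plate position as a block was an alternative run in both. In simulated counts with 200 genes changed by a log2 fold of 1.5, edgeR recovered 149 in OVCAR3 (12243 genes tested, 6 false calls), 147 in CCL218 (12242, 9 false), 84 in the difference between lines (12441, 8 false) and 158 between controls (12433, 7 false). Lengths, GC content and gene positions came from GENCODE 44 on hg38, to which 25763 of 28278 symbols (91.1%) matched. Promoters came from RefSeq (GRCh38.p14), where both genes looked up were found.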

Additional observations from a re-analysis of the deposited data

Results flagged for a closer look

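The change of KLF2 differed between the lines by 2.60 on the log2 scale (CCL218 minus OVCAR3), by the interaction test of edgeR (adjusted p = 0.00890), with the HCQ-evolved pools below control in 3 of 3 OVCAR3 pools and above control in 3 of 3 CCL218 pools.

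The change of KLF4 differed by 2.50, with every HCQ-evolved pool below every control pool in OVCAR3 and above every control pool in CCL218. KLF4 was chosen for this difference, which was not tested.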

How the results depend on the processing

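All log2 fold changes of KLF4, KLF2, KLF6, KLF10 and KLF11 kept their direction in every comparison under every alternative run, but the number of KLF genes called beside KLF4 depended on the setting. In OVCAR3 it was 1 as reported (227 over all genes), 2 without a filter (549) and 0 with the replicate block (81). It was 4 with DESeq2 (1105), the length and GC content offset (1014) or all libraries in one fit (1165), namely KLF2, KLF6, KLF10 and KLF11 each time. With 1 pool left out it was 0 to 3 (3 without HCQ-evolved R, 557 over all genes). In CCL218 it was 0 as reported (791 over all genes), 1 without a filter (1005) and 1 with all libraries in one fit (654). It was 3 with DESeq2 (2172), the replicate block (1744) or the offset (2315), and 0 to 3 with 1 pool left out (3 without control L, 3047 over all genes). Each time the 3 were KLF2, KLF10 and KLF9, and the call of KLF9 is no support because of the limit given above. For the difference between lines it was 1 as reported (110 over all genes), 2 without a filter (122), 1 with the replicate block (35), 4 with DESeq2 (463) and 4 with the offset (397). With 1 pool left out it was 1 to 4 (4 without OVCAR3 HCQ-evolved R, 212 over all genes). Between controls it was 2 as reported (431 over all genes), 1 in control libraries only (249), and 0 to 2 with 1 pool left out. The causes were not tested. Over all genes, calls ranged from 81 to 1165 in OVCAR3 (3 without control L to 557 without HCQ-evolved R), from 654 to 2315 in CCL218 (102 without HCQ-evolved M to 3047 without control L), from 35 to 463 for the difference (38 to 212) and from 249 to 925 between controls (181 to 790). Signs turned for genes near 0. In OVCAR3, KLF5 was at 0.035 without a filter and at -0.30 to 0.17 with 1 pool left out, KLF3 at -0.36 to 0.15 and KLF13 at -0.30 to 0.85. KLF13 in the difference ranged from -0.22 to 0.90. Between controls, KLF3 was at -0.16 with the offset and -0.058 to 0.32 with 1 pool left out, KLF13 at -0.14 to 0.84 and KLF9 at -0.0064 to 0.61. DESeq2 made 57, 54, 36 and 53 false calls in the simulations of OVCAR3, CCL218, the difference and the controls. In OVCAR3 the positions did not deviate together, and there the block lowered all calls from 227 to 81. In CCL218 it raised them from 791 to 1744, and for list genes called in CCL218 it ended no call, whereas in OVCAR3 it ended 7 of 14. For the difference between lines it ended the calls of CCND1 and FOS. Depth limits KLF7 and, in control pools, KLF9.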
